A study of Mus musculus with 2 samples.

Results

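The miR-26 family of microRNAs (miRNAs) is made in the mouse from 3 genes, Mir26a-1, Mir26a-2 and Mir26b, which lie inside the genes Ctdspl, Ctdsp2 and Ctdsp1. These 3 genes were picked by name from the 2202 annotated miRNA genes of 2 small RNA libraries, and all 3 had at least 10 counts in both libraries, as did 340 genes in all. The libraries came from adrenal glands of B6CASTF1/J mice, the first-generation offspring of a laboratory strain and a wild-derived strain, taken from males on postnatal day 4. Replicate 2 came from male 4 and replicate 1 from male 3, and there was no second group, treatment or age. The genes were chosen with their levels and their difference between the libraries already known, so both are given as a description without a test. Each animal gave 1 library, so animal, dissection and library preparation cannot be told apart.

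A miRNA is cut from a hairpin in a longer transcript and guides silencing proteins to messenger RNAs, mainly through bases 2 to 8 of the mature strand, the seed. A hairpin gives a 5p strand and a 3p strand, of which the miR-26 5p strands are the well-studied ones. MiR-26 is widespread in differentiated tissues and restrains growth, and the mRNA of Ezh2, the histone methyltransferase of the Polycomb repressor, is among its known targets. The host genes encode small phosphatases of the C-terminal domain of RNA polymerase II, which keep neuronal genes off in non-neuronal cells as partners of the repressor REST. Transcription of such a host gives both the mRNA and the miRNA.

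The mature sequences are shown because they set what could be counted at each locus. They are from RefSeq on GRCm38, written 5′ to 3′ with the seed in capitals, and all 3 genes were matched there.

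miR-26a-5p from Mir26a-1 and Mir26a-2: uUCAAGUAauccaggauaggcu
miR-26b-5p from Mir26b: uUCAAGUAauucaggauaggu
miR-26a-1-3p: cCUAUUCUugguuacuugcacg
miR-26a-2-3p: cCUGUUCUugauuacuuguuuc
miR-26b-3p: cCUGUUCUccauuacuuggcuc

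The 5p strands of both Mir26a loci are identical. Counted from base 1 at the 5′ end, miR-26b-5p differs from miR-26a-5p by C11U and C21U and is 1 base shorter, 21 against 22 bases. The seed UCAAGUA was found in the mature strands of no other gene in the RefSeq table. The 3p strands differ more. MiR-26a-1-3p differs from miR-26a-2-3p at 6 positions, and only the first of these, A4G, lies in the seed. MiR-26a-2-3p and miR-26b-3p share their first 8 bases and hence a seed, which was also present in Mir6932 and Mir7039.

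The hairpins below carry in capitals the run that begins with the 5p strand. In Mir26a-1 and Mir26a-2 this is the 25-base run that both hairpins share, and in Mir26b it is the first 10 bases, after which its sequence departs.

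Mir26a-1 hairpin: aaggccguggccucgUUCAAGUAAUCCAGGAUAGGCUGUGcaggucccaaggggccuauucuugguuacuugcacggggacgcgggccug
Mir26a-2 hairpin: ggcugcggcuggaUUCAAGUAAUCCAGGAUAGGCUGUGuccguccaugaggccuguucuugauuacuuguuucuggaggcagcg
Mir26b hairpin: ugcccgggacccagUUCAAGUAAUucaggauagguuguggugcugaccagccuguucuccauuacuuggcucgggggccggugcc

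The 25 shared bases hold the whole 22-base miR-26a-5p and 3 bases after it. A read that lies within this run matches both loci, and the deposited tables put reads that align to more than 1 locus in a summary row outside the gene counts. Such reads numbered 1684373 in replicate 2 and 3176275 in replicate 1, and how many of them were miR-26a was not tested. Mir26b has no such partner. The longest run it shares with any other annotated miRNA gene is 12 bases, and in the GENCODE M21 transcripts miR-26b-5p was found in Mir26b alone. The tables do not record the strand of the hairpin, so any 5p and 3p reads assigned to a gene enter 1 count. At the Mir26a loci a read that matches within the shared run is left out of this count. Their counts then rest on 3p reads and on reads that reach past the run. How they divide between these was not tested.

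Mir26b (gene ENSMUSG00000065468.1) lies on the plus strand at chr1:74394310-74394394 of mm10. It was by far the most counted member. It had 41820 counts in replicate 2 and 168868 counts in replicate 1. Scaled to a library total of 1000000 counts on the sense strand of miRNA genes (CPM), its level was 24792 CPM in replicate 2 (95% exact Clopper-Pearson interval 24558 to 25028) and 42626 CPM in replicate 1 (42427 to 42825). The gene ranked 12 in replicate 2, between Mir23b and Mirlet7d, and 6 in replicate 1, between Mir322 and Mir143. Intervals cover counting error only, since reads are not independent molecules.

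Mir26a-1 (gene ENSMUSG00000065513.1) lies on the plus strand at chr9:119031796-119031885. It had 336 counts in replicate 2 and 98 counts in replicate 1. Its level was 199 CPM in replicate 2 (178 to 222) and 24.7 CPM in replicate 1 (20.1 to 30.1), which gave it rank 170 in replicate 2 and rank 276 in replicate 1. Mir26a-2 (gene ENSMUSG00000065430.1) lies on the plus strand at chr10:126995530-126995613. It had 187 counts in replicate 2 and 186 counts in replicate 1. These were 111 CPM in replicate 2 (95.5 to 128) and 47.0 CPM in replicate 1 (40.4 to 54.2). Its ranks were 200 in replicate 2 and 244 in replicate 1. As counted here, Mir26b stood near the top in both libraries. Of the Mir26a loci, Mir26a-1 was at the middle rank of the 340 detected genes in replicate 2 and well below it in replicate 1, and Mir26a-2 was below it in both.

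**Figure D1:**
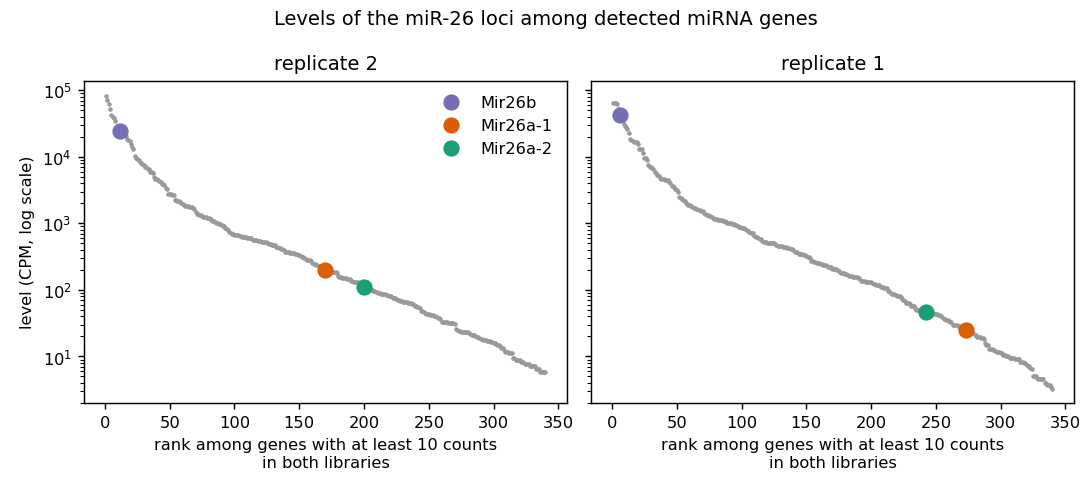
Level of each miRNA gene in CPM (log scale) against its rank, for the 340 genes with at least 10 counts in both libraries, with replicate 2 on the left and replicate 1 on the right. Mir26b sits near the top in both panels, and Mir26a-1 lies above Mir26a-2 in replicate 2 and below it in replicate 1.

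Over both libraries Mir26b averaged 33709 ± 12610 CPM (SD, n = 2), Mir26a-1 112 ± 123 CPM and Mir26a-2 78.9 ± 45.2 CPM. Mir26b was above either Mir26a locus by more than any of these SDs. The means of Mir26a-1 and Mir26a-2 differed by 33.1 CPM, less than the SD of either, so these neighbours in the order of levels cannot be separated.

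Mir26b made up 98.8% of the family's counts in replicate 2 (95% exact interval 98.7 to 98.9%) and 99.8% in replicate 1 (99.8 to 99.9%). For each count at the Mir26a loci there were 80.0 counts at Mir26b in replicate 2 and 595 in replicate 1. The 3 genes together held 2.51% of miRNA counts in replicate 2 and 4.27% in replicate 1. With genes grouped by the number in their symbol, Mir26 ranked 11 in replicate 2 and 6 in replicate 1. By mean level it ranked 8 among 640 such groups with any count, behind Mirlet7, Mir10, Mir126, Mir23, Mir322, Mir143 and Mir375. These shares leave out every multi-locus read and so say nothing of the amount of miR-26a-5p in the tissue.

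The strand opposite to each of the 3 genes had 0 counts in both libraries, which allows up to 3 counts, or 1.78 CPM in replicate 2 and 0.757 CPM in replicate 1. The either-strand column gave the same counts as the sense-strand column for all 3 genes.

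The libraries differed in the family in opposite directions. Mir26a-1 was 8.05-fold higher in replicate 2 than in replicate 1 (95% exact interval of the ratio 6.41 to 10.2). Mir26a-2 was 2.36-fold higher in replicate 2 (1.92 to 2.91), and the summed counts of both loci were 4.33-fold higher (3.74 to 5.02). Mir26b was lower in replicate 2, at 0.582 of its replicate 1 level (0.575 to 0.588). The log2 ratios of replicate 2 over replicate 1, on CPM + 0.5, were 2.98 for Mir26a-1, 1.23 for Mir26a-2 and -0.78 for Mir26b.

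Both Mir26a loci were more than 2-fold apart between the libraries and Mir26b was not. Among 404 genes that reached 10 counts in 1 library or both, 87, or 21.5%, were more than 2-fold apart, of which 39 (9.65%) were higher and 48 (11.9%) were lower in replicate 2. Among 139 genes whose mean level lay within 4-fold of the mean of the Mir26a loci, 24 (17.3%) were past 2-fold. Only 2 genes had a larger log2 ratio toward replicate 2 than Mir26a-1, while 30 had a larger one than Mir26a-2. A ratio as low as that of Mir26b was less unusual, with 63 genes lower still. Among the 340 genes with at least 10 counts in both libraries, 57 (16.8%) were past 2-fold, 35 higher and 22 lower in replicate 2. A gene can enter the 404 through its higher library alone, so the split by direction depends on this minimum. The Mir26a loci rested on 98 to 336 counts a library.

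**Figure D2:**
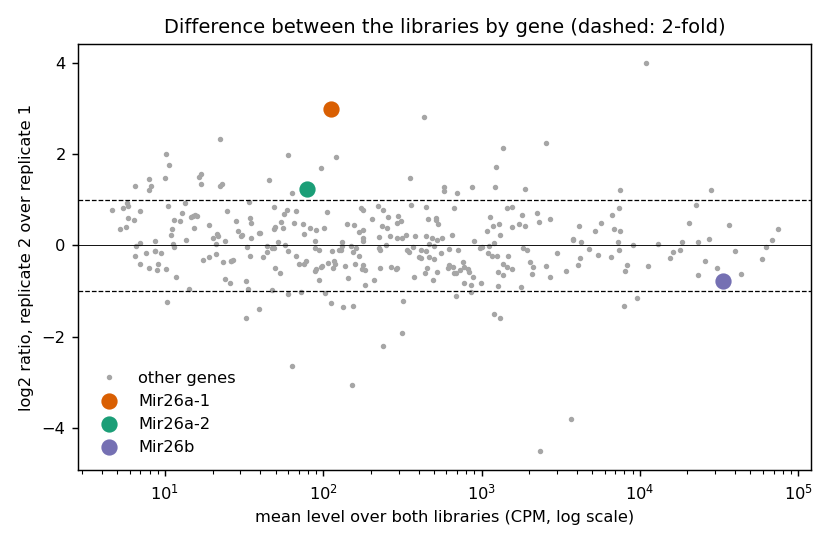
Log2 ratio of replicate 2 over replicate 1 (CPM + 0.5) against the mean level in CPM (log scale), 1 point per gene with at least 10 counts in both libraries. The dashed lines mark 2-fold; Mir26a-1 (2.98) and Mir26a-2 (1.23) lie above the upper line and Mir26b (-0.78) lies between the lines.

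Some markers of other cells also differed between these libraries by more than 2-fold, and others did not. Mir126a of endothelium was at 83391 CPM in replicate 2 and 65222 CPM in replicate 1. Mir143 and Mir145a of smooth muscle and stroma were at 37940 and 504 CPM in replicate 2, against 41567 and 716 CPM in replicate 1. These were less than 2-fold apart. Mir122 of hepatocytes was at 20602 CPM in replicate 2 and 1299 CPM in replicate 1. Mir451a and Mir144 of red blood cells were at 491 and 84.8 CPM in replicate 2, against 6842 and 393 CPM in replicate 1. Of the striated muscle markers Mir206 was at 2646 CPM in replicate 2 and 1130 CPM in replicate 1, and Mir1a-1, Mir1a-2 and Mir133a-1 had at most 2 counts a library. Reads that align to more than 1 locus are outside these counts, so a low count does not show that a miRNA is absent. Of the kidney and gut markers Mir192 was at 190 and 49.7 CPM and Mir194-1 at 0.593 and 9.84 CPM, in replicates 2 and 1. Mir194-2, another locus of miR-194 that was not on the marker list, was at 96.0 CPM in replicate 2 and 24.0 CPM in replicate 1. The part of these tissues in the miR-26 ratios was not tested. The endocrine markers Mir375 and Mir7-1 were at 42377 and 472 CPM in replicate 2 and at 31129 and 462 CPM in replicate 1, and Mir7b was at 3754 and 4570 CPM in replicates 2 and 1. Mir7-1 shares miR-7a-5p with Mir7-2, so reads that match both loci are outside its counts. Mir194-2 likewise has a strand that is also made at another locus. Mir202, a miRNA of steroid-producing cells, was at 75.9 CPM in replicate 2 and 54.0 CPM in replicate 1. In bulk tissue, fewer cells of a type and less RNA per cell cannot be told apart.

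In counts that leave out reads within their shared run, the 2 loci of miR-26a changed places between the libraries. Mir26a-1 gave 64.2% of the counts at both loci in replicate 2 (95% exact interval 60.0 to 68.4%) and 34.5% in replicate 1 (29.0 to 40.4%). The move of 29.7 percentage points was set beside those of other loci with a shared mature form. The RefSeq matching did not pair Mirlet7a-1 with Mirlet7a-2, so the pairs it gave may be incomplete. It gave 19 pairs of detected loci that alone share an identical mature strand, and Mir26a-1 with Mir26a-2 ranked 13 by summed level. Among the other 18 pairs the median move was 6.88 points and the largest was 25.2 points. A share near 100% can move little, so the log2 ratios of the 2 loci were also compared. They differed by 1.75 for miR-26a, and by a median of 0.47 and at most 1.46 for the other pairs.

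The 3 pairs of the highest summed level had log2 ratios that differed between their loci by 0.34 for let-7f, 0.24 for miR-16 and 0.07 for miR-92a. Mirlet7f-2 held 95.5% of its pair with Mirlet7f-1 in replicate 2 and 96.4% in replicate 1. Mir16-1 held 77.2% of its pair with Mir16-2 in replicate 2 and 80.0% in replicate 1. Mir92-1 held 96.3% of its pair with Mir92-2 in replicate 2 and 96.4% in replicate 1. The leading locus changed in 3 of the 19 pairs. Besides miR-26a these were Mir450-2 with Mir450-1 and Mir3070a with Mir3070b, named after their values were seen. The Mir450 loci had 38 to 176 counts a library and the Mir3070 loci 18 to 46.

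**Figure D3:**
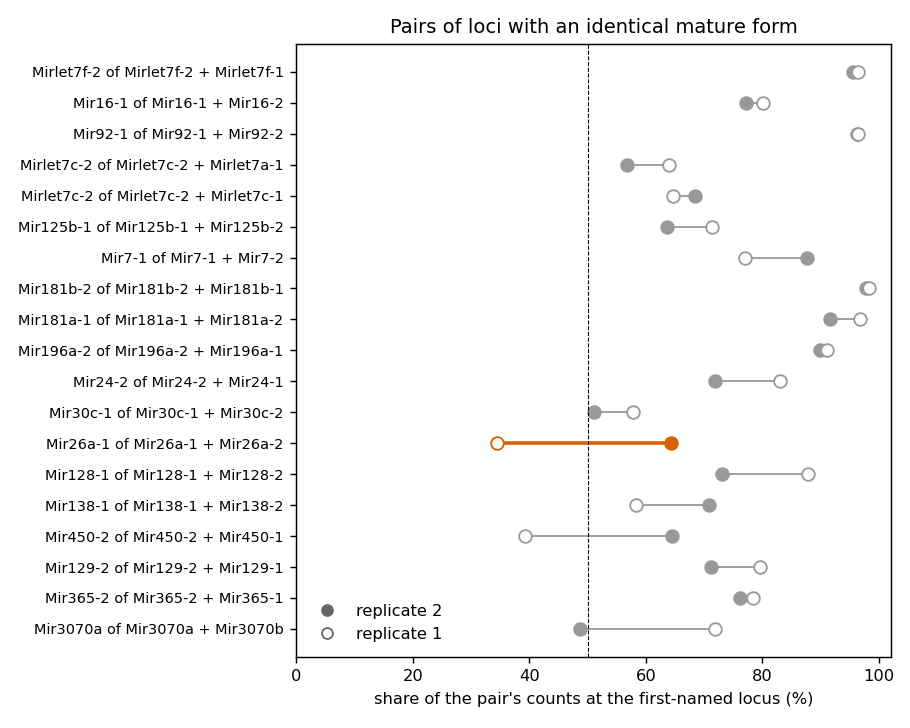
Share of a pair's counts (%) at the locus named first, for 19 pairs of loci with an identical mature strand, ordered from the highest to the lowest summed level. Filled points are replicate 2, open points replicate 1 and the dashed line is an equal split; the Mir26a pair (orange) lies on different sides of it in the 2 libraries, at 64.2% in replicate 2 and 34.5% in replicate 1.

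Detected loci with a mature strand found to be shared had a lower median level than those with none found. Of 340 detected genes 30 were not matched to a mature strand in RefSeq, Mir143 and Mir122 among them. With a median of 166 CPM, these were left out of both classes. The other 310 were matched, and 45 of the 310 had at least 1 strand that is also made at another locus. Their median level was 78.9 CPM, the level of Mir26a-2, and 60.0 CPM without the Mir26a loci. The 265 matched genes for which no such strand was found, Mirlet7a-2 among them, had a median of 293 CPM. Among the 45, Mir26a-1 ranked 18 by mean level, and the highest, Mirlet7f-2, reached 4123 CPM, below Mir26b at 33709 CPM. A longest-run comparison of the hairpins gave the same order. Detected genes that share 20 or more bases with another miRNA gene numbered 81, with a median of 112 CPM (114 CPM without the Mir26a loci), against 292 CPM for the other 259 genes. The highest of the 81, Mir23b, reached 30777 CPM, near the level of Mir26b. In the class with a shared strand 12 of 50 genes (24.0%) were past 2-fold between the libraries, against 64 of 315 (20.3%) in the class without. Leaving out the Mir26a loci, which were chosen with their ratios known, it was 10 of 48 (20.8%).

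**Figure D4:**
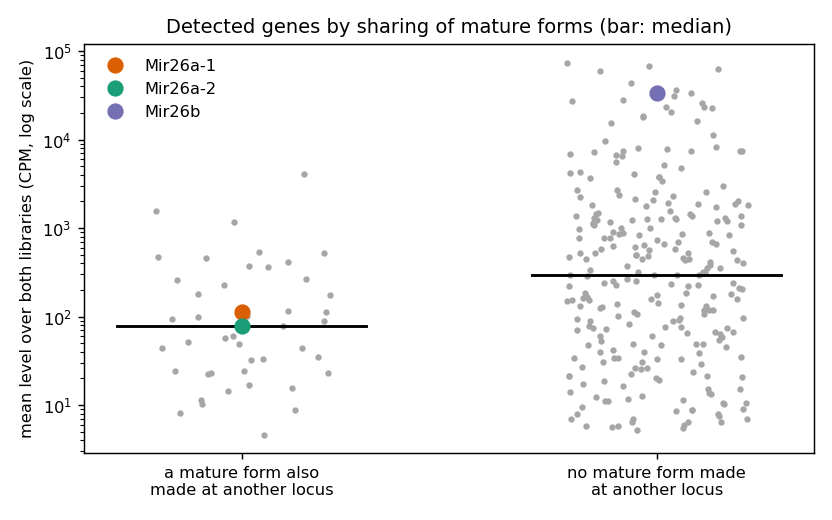
Mean level in CPM (log scale) of detected genes matched to a mature strand in RefSeq. On the left are 45 genes with at least 1 strand that is also made at another locus, on the right 265 genes with none found. Bars are medians, 78.9 and 293 CPM. Mir26a-1 and Mir26a-2 lie near the median on the left, and Mir26b lies near the top on the right.

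Likeness to each member was taken as the distance between the log2 levels (CPM + 0.5) of the 2 libraries, among 339 other detected genes. Nearest to Mir26b were Mir23b at a distance of 0.24, Mir322 at 0.57 and Mir335 at 0.57, all with lower levels in replicate 2. Mir23b was at 25478 CPM in replicate 2 and 36077 CPM in replicate 1. Nearest to Mir26a-2 were Mir6236 at 0.10, Mir760 at 0.39 and Mir669l at 0.41. Mir6236 was at 104 CPM in replicate 2 and 45.2 CPM in replicate 1. No gene lay as close to Mir26a-1, whose nearest were Mir222 at 0.95, Mir192 at 1.00 and Mir194-2 at 1.05. Mir192 and Mir194-2 belong to miRNAs of kidney and gut, and Mir222 had 249 counts in replicate 2 and 178 counts in replicate 1. With 2 libraries this measure rests on 2 values a gene.

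The 3 hairpins lie on the strand of their host genes and at the same place in the gene. Mir26a-1 is in intron 5 of the longest annotated transcript of Ctdspl, Mir26a-2 in intron 5 of that of Ctdsp2 and Mir26b in intron 4 of that of Ctdsp1. In all 3 hosts the exon before this intron has 57 bases and the exon after it has 93 bases. This pair of neighbouring exon lengths occurred in 18 of 20570 protein-coding genes with more than 1 exon, and 3 of the 18 were the hosts. The intron itself differs in size. It has 3283 bases in Ctdspl, 1946 in Ctdsp2 and 564 in Ctdsp1. The hairpin starts 105343 bases after the start of this transcript in Ctdspl, 16813 bases in Ctdsp2 and 2801 bases in Ctdsp1, so the most counted member sits nearest to its host's start and in the shortest intron. Since the counts of the other two leave out multi-locus reads, nothing was drawn from that order.

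**Figure D5:**
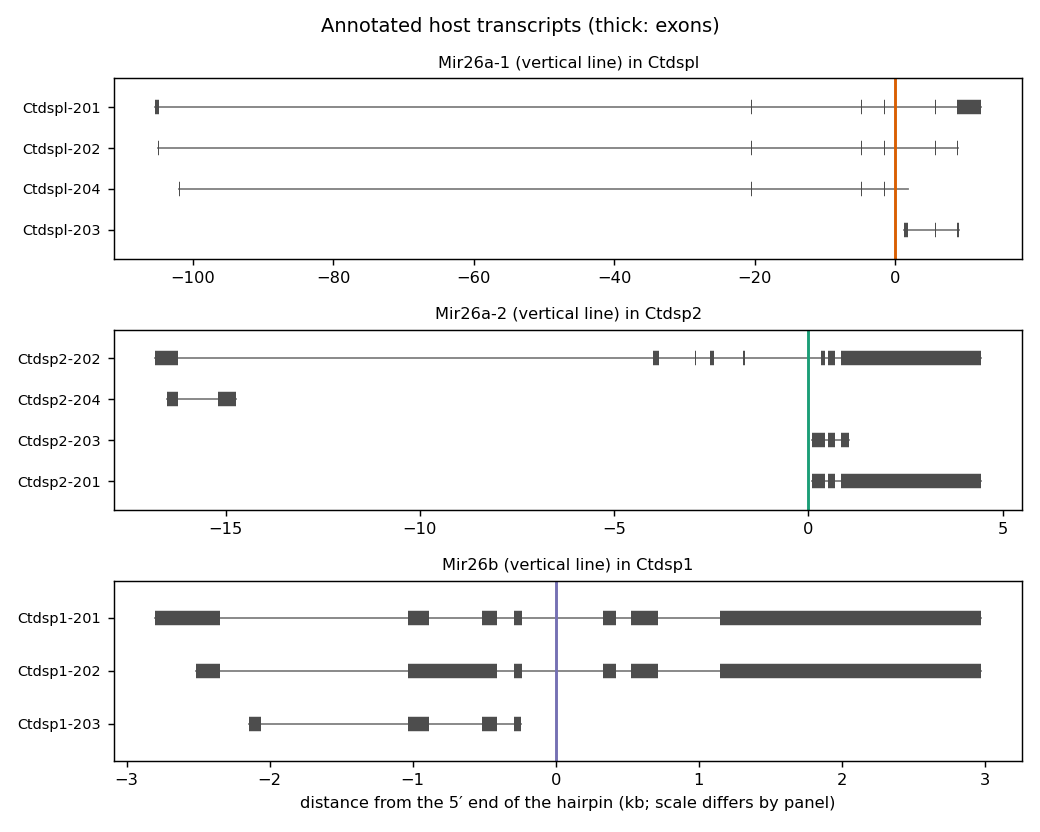
Annotated transcripts of the host genes by distance in kb from the 5′ end of each hairpin (vertical line), with exons as thick bars and a different scale in each panel. Each hairpin lies in an intron of its main host transcript, and 2 shorter Ctdsp2 transcripts begin at the end of the Mir26a-2 hairpin.

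The family's targets were not measured in these libraries. The letters TACTTGA, which pair with bases 2 to 8 of the 5p strands, and TACTTGAA, which contain them and add an A opposite base 1, were searched on both strands of the longest annotated 3′ untranslated region (UTR) of each gene. The shorter motif was present in 9.67% and the longer in 4.17% of 20981 such regions, and in 7.68% and 3.05% on the other strand. The known target Ezh2 and the host Ctdsp2 held 1 match each, shown here with the match in capitals.

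Ezh2 on chromosome 6: tgaataaagaaTACTTGAActtgttgttga
Ctdsp2 on chromosome 10: agtgttgctctTACTTGAtttgccaaatg

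The match in Ezh2 has the 8 letters and that in Ctdsp2 has the 7. Regions of like length to that of Ctdsp2, 3489 bases, held the 7 letters in 23.6% of 2030 genes, and those like Ezh2, 402 bases, held the 8 letters in 1.22% of 1968 genes. In zebrafish, miR-26b is known to repress ctdsp2, its host there. Ctdspl and Ctdsp1 held neither motif in their regions of 3349 and 1701 bases, and none of the 4 genes held one on the other strand.

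MYC, a growth-promoting transcription factor, represses many miRNAs, among them miR-26. A list of 25 symbols of such miRNAs matched 23 genes, of which 22 were detected and all 23 had at least 10 counts in a library. The unmatched symbols, Mir146a and Mir497a, were listed beside Mir146 and Mir497, which were matched. More than 2-fold higher in replicate 2 were 3 genes, namely Mir26a-1, Mir26a-2 and Mir29b-1, and 0 were more than 2-fold lower. Over all 404 genes 9.65% were higher and 11.9% were lower. Of the 340 genes with at least 10 counts in both libraries, 35 were higher and 22 were lower. Leaving out the miR-26 genes, 1 of 20 was higher. The list's median log2 ratio was 0.12, and 0.06 without the miR-26 genes, beside -0.05 over all 404 genes. Mir29b-1 had 43 counts in replicate 2 and 33 counts in replicate 1, with a log2 ratio of 1.56. Mir26b had the second lowest ratio of the list, next to Mir195a with -0.83. Together the matched genes held 15.3% of miRNA counts in replicate 2 and 15.7% in replicate 1, and 12.8% and 11.4% without the miR-26 genes.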

How the data were processed

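Small RNA from adrenal glands of 2 male mice was sequenced, 1 library each. The deposited tables hold whole-number read counts per miRNA gene; per the file lists beside them, they were made by the authors on mm10 with annotation M21. The aligner, adapter trimming and read filters are not given in the sources used here. The third column (sense strand) was used. The 4 summary rows were left out of totals, which came to 1686822 for replicate 2 (25.7% of its reads) and 3961630 for replicate 1 (33.7%). The CAST/EiJ sequence was not used here, so its effect on alignment was not tested. The genes, the lists and the rule for named genes (the members, their 3 nearest genes, genes with their seed, and the 3 pairs of loci with the highest level) were chosen with earlier results of these data known. The level window around the Mir26a loci, the sharing of 20 bases, the host features and the UTR motifs were chosen after the data were seen. A gene was classed as sharing a mature form if at least 1 strand in RefSeq (GRCm38.p6) is identical at another locus, since the main strand is not recorded. Gene positions, transcripts and hairpin runs are from GENCODE M21. Intervals are exact (Clopper-Pearson, 95%), and for ratios between libraries conditional on the summed count. The ratio and interval were checked on simulated counts of well-counted genes, with counting error only and planted changes larger than 2-fold. That check does not cover variation between animals. No p-value was computed. TMM factors (edgeR 4.0.16) and size factors (DESeq2 1.42.0) in R 4.3.3 served as other scalings. Other steps used scipy 1.17.1, pandas 2.3.3, numpy 2.4.6 and matplotlib 3.10.9 under Python 3.11.15.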

Additional observations from a re-analysis of the deposited data

How the results depend on the processing

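No paired analysis was possible because the 2 libraries form 1 group. Of 48 alternatives for 10 results, 37 stayed close, 11 moved and 0 reversed. Close meant within the spread between libraries or the counting interval, and for the number of genes past 2-fold within 1.5-fold of 87. Only the log2 ratios of the Mir26a loci could be labelled reversed. The spread of the Mir26a levels is wide, so staying within it says little. With all reads as the library total, the mean levels (CPM) were 22.2 for Mir26a-2, 10362 for Mir26b and 10414 for the 3 loci, by construction of the larger total. The log2 ratio of Mir26b, whose counting interval is narrow, was -0.89 with TMM factors and with DESeq2 size factors, and -0.76 without Mir122 and Mir451a in the total. That of Mir26a-1 lay between 2.78 and 3.01 and that of Mir26a-2 between 1.12 and 1.25 in every alternative run. Genes more than 2-fold apart numbered 248 with no minimum count (133 higher in replicate 2), 57 with at least 10 counts in both libraries (35 higher), 57 with CPM + 5 (33 higher) and 167 past 1.5-fold, against 87 (39 higher). The median of loci with a shared strand was 43.9 CPM with a minimum of 1 count. Without replicate 1 or replicate 2 the values ranged from 24.7 to 199 CPM for Mir26a-1, 47.0 to 111 for Mir26a-2, 24792 to 42626 for Mir26b and 25102 to 42698 for the 3 loci, 98.8 to 99.8% for the share of Mir26b, and 45.3 to 82.4 CPM for the median of loci with a shared strand. At the Mir26a loci the libraries differed by more than the counting intervals of their levels.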

Other observations

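The annotated 5′ end of 2 Ctdsp2 transcripts coincides with the 3′ end of the Mir26a-2 hairpin. One of them codes for a protein and the other retains an intron, and both start at position 126995613 of chromosome 10, which is the last base of the hairpin, so each overlaps it by 1 base. The longest transcript of Ctdsp2 starts 16813 bases before the hairpin. A same-strand transcript of another gene that starts within 1 base of a hairpin's 3′ end was annotated for 7 of the 2202 miRNA genes (0.318%) and for 2 of the 340 detected genes. The other detected one was Mir24-2, with Gm26532. No such transcript was annotated for Mir26a-1 or Mir26b: the nearest Ctdspl start lies 1116 bases after the end of the Mir26a-1 hairpin. Host transcripts were not measured in these libraries.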
